A study of Drosophila melanogaster with 2 samples.

Results

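The Wingless pathway genes described here are wg, fz, fz2, arr, dsh, sgg, Axn, arm, pan and nkd, 10 genes taken by name from the Ensembl BDGP6 annotation, out of 13968 protein-coding genes. Binding near them was read from chromatin immunoprecipitation and sequencing of OdsH-GFP in whole Drosophila melanogaster larvae, collected in the third instar while wandering. OdsH is a homeodomain protein. The larvae came from a stable transgenic line in which GFP was fused to the C terminus of OdsH, and both replicates carry the same transgene. The precipitation was made with an antibody against GFP. The promoter that drives the fusion is not given in the sources used here, sex was not recorded and age is given as unknown. The 2 biological replicates form 1 group, so the design holds no contrast between conditions, and no test was made. A summit is the position of highest signal within a peak, and a gene was counted as having a summit when it lay inside the gene or within 5 kb of either end.

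The authors' thresholded list, cut by irreproducible discovery rate between the replicates, held 7223 peaks, and the relaxed lists of each replicate and of the pooled data held 30000 peaks each. The relaxed lists include background by design. Signal is the authors' own value for each peak. Its scale is unstated, and it serves here only to rank and describe peaks. The lowest signal in the thresholded list was 109. The depth behind each value is unknown. Larvae were taken whole, so a summit does not tell in which tissue the tagged protein was bound.

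Wingless is the founding Wnt protein of the fly. Without it, a complex built on the scaffold Axin phosphorylates the beta-catenin Armadillo and marks it for degradation. When Wingless binds a Frizzled receptor and the coreceptor Arrow, Dishevelled and Axin are drawn to the membrane, Armadillo is spared, and it joins the TCF protein Pangolin on target genes. In the larva the pathway is known for patterning the imaginal discs, and naked cuticle (nkd) is an induced inhibitor that acts on Dishevelled.

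Reference sequence (RefSeq Release 6, which is the dm6 build, plus strand) is shown for the strongest thresholded summit of 6 of the genes, since these are the sites the results below return to. Each line runs from 50 bp before the summit to 50 bp after it. Capitals mark TAAT on either strand, the core of homeodomain sites, except in the fz2 line, which holds no TAAT and where capitals mark the Pangolin site CTTTGAT read on the minus strand.
wg: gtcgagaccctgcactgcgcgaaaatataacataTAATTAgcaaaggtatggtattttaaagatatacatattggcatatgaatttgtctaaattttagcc
fz: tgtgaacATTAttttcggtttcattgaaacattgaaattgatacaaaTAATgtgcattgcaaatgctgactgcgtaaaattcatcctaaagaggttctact
fz2: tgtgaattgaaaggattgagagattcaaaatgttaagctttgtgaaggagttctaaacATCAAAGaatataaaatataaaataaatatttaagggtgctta
dsh: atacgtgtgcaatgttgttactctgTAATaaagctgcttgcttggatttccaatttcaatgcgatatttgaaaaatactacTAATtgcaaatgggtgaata
sgg: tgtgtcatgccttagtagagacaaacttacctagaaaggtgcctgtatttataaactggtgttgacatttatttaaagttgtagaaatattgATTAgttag
nkd: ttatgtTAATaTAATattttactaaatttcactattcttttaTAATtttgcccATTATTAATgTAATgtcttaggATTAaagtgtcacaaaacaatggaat
The wg window is chr2L:7320081-7320181, beyond the 3′ end of the gene. The fz window is chr3L:14304035-14304135 and the fz2 window chr3L:19194212-19194312. The dsh window is chrX:11351499-11351599 and lies in an intron outside dsh. The sgg window is chrX:2646416-2646516, just upstream of an internal start site, and the nkd window is chr3L:19042668-19042768, inside the gene. The nkd window held 8 matches to TAAT, the fz, dsh and wg windows 2 each and the sgg window 1. Overlapping matches were counted separately, so both of those in the wg window come from the stretch TAATTA, and some in the nkd window overlap. Of all 7223 thresholded summits, 59 held 8 or more such matches and the median number was 2. The nkd window was also rich in A and T, at 79.2% of its bases.

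Thresholded summits were found at 8 of the 10 genes, and 42 summits lay in or within 5 kb of them. The receptor genes fz and fz2, the coreceptor gene arr and the inhibitor gene nkd held 36 of the 42, while Axn and arm held none. Of all coding genes, 56.1% had a thresholded summit in the gene or within 5 kb. Long genes offer more sequence in which a summit can fall, and the members are long, with a median length of 35650 bp against 2165 bp for all coding genes. Among the 6 members over 20 kb (fz, fz2, arr, sgg, pan and nkd) all 6 had a summit, against 71.5% of the 1020 coding genes of that length. Among the 3 members of 5 to 20 kb only wg did, against 68.9% of such genes, and dsh, the single member under 5 kb, had a summit, against 51.6%. The counts are small and no test was made on them.

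Summits inside the gene separate the members further. Of the 42 summits, 33 lay inside a member, in 5 genes (fz, fz2, arr, sgg and nkd), and 9 lay outside. Of all coding genes 15.8% held a thresholded summit inside the gene, and of those over 20 kb 57.8% did, against 5 of the 6 members of that length. The summits counted at wg, dsh and pan all lay outside the gene, by 3866, 4332 and 2134 bp. A thresholded summit within 500 bp of one of the gene's own start sites was found for fz2, sgg and nkd, 3 of 10 members, against 24.1% of all coding genes and 33.2% of those over 20 kb.

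**Figure D1:**
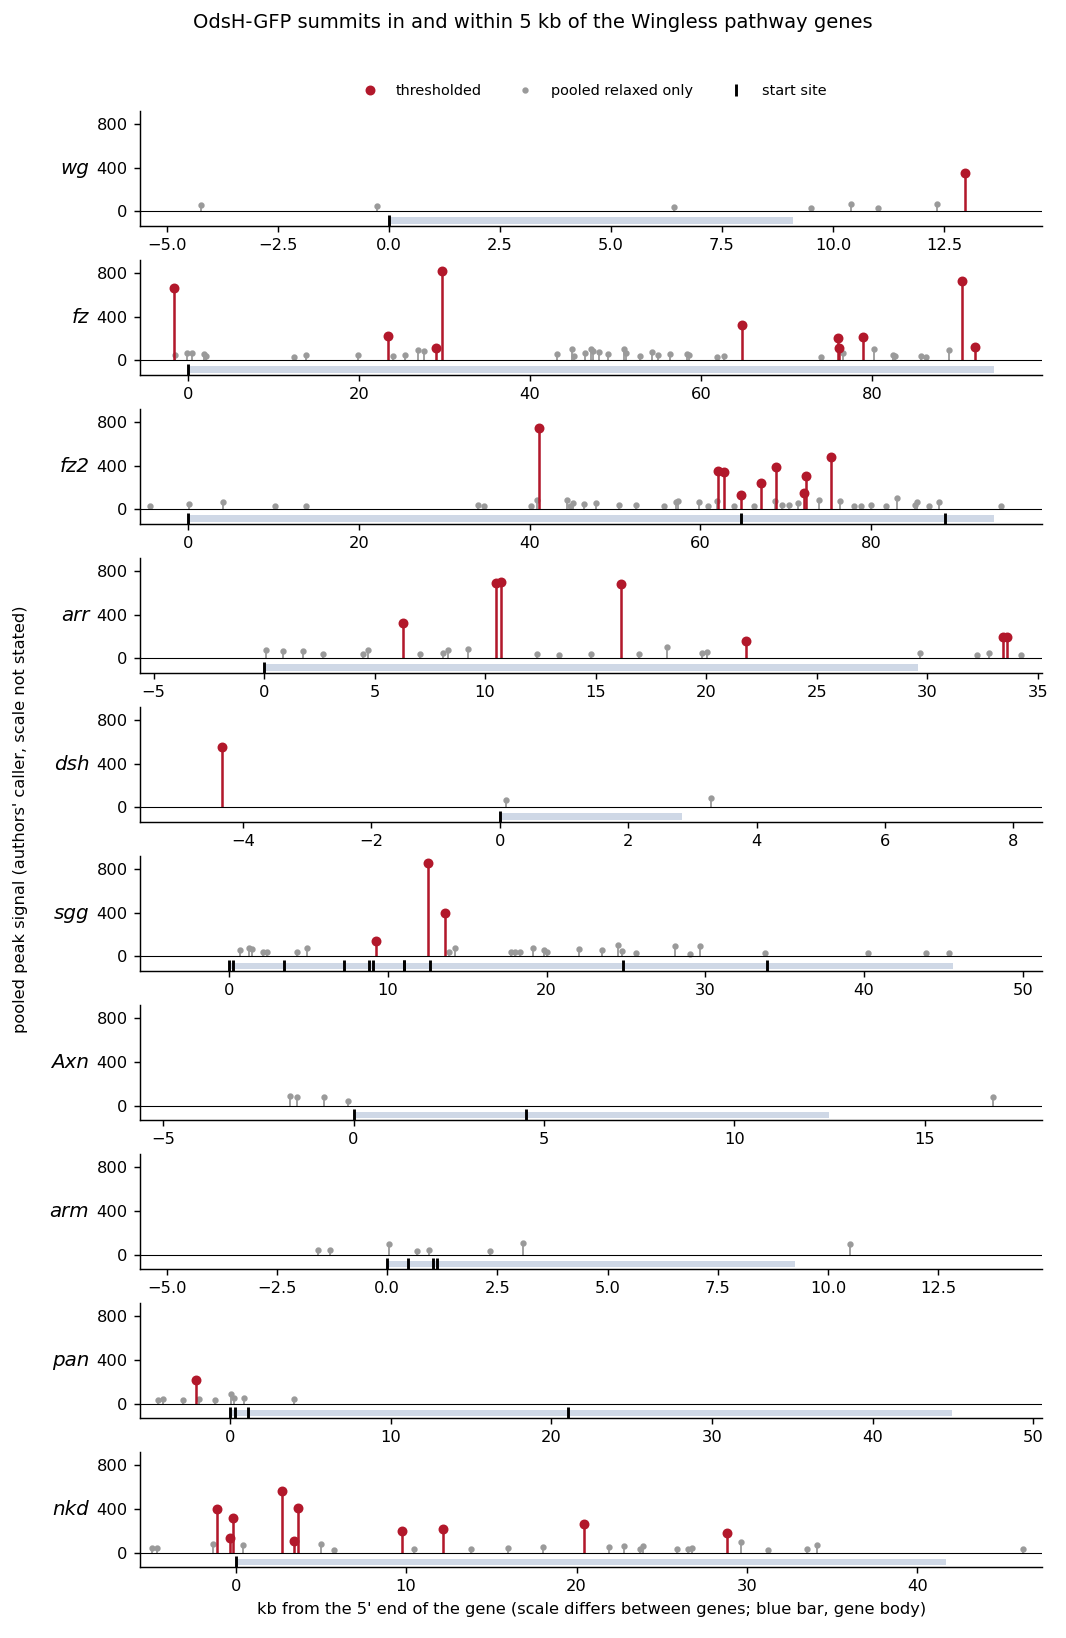
Each panel shows a member, with distance from its 5′ end in kb on the x axis and pooled peak signal on the y axis. Red stems are thresholded summits, grey stems are summits of the pooled relaxed list only, the blue bar is the gene and black ticks are its start sites. The 10 summits of fz run from upstream of its start site to near its 3′ end, 8 of the 9 of fz2 lie close together, and Axn and arm hold only grey stems.

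The ligand gene wg (FBgn0284084, 2L 7307159 to 7316265) had a single thresholded summit, and none inside the gene. It lay 3866 bp past the 3′ end of wg in intergenic sequence, at 7320131, and wg was the coding gene with the nearest start site, 12972 bp away. Its signal was 352 pooled, 155 in replicate 1 and 210 in replicate 2. The window around it, printed above, held the homeodomain palindrome TAATTA. A further thresholded summit, of signal 288, lay 5032 bp from wg and so just outside the 5 kb limit. Inside wg the strongest pooled relaxed summit had a signal of 41.4, and the relaxed summit within 500 bp of its start site one of 52.7. Both are under the lowest thresholded signal.

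The receptor gene fz (FBgn0001085, 3L 14274343 to 14368639), whose product also acts in planar cell polarity, had 10 thresholded summits. The strongest lay in an intron 29742 bp from its only start site, with a signal of 818 pooled, 385 in replicate 1 and 458 in replicate 2. The next, 90555 bp from the start site and also in an intron, had 728 pooled, 331 in replicate 1 and 394 in replicate 2. A summit 1702 bp upstream of the start site had 664, 280.5 and 407 in the same lists. None of the 10 was within 500 bp of the start site, where the pooled relaxed list held a summit of signal 65.6. All 9 summits inside fz were in introns, and their pooled signals ran down to 109.5, close to the lowest thresholded value. For 8 of those 9 the nearest coding start site was that of CG13482 or CG13481 and not that of fz.

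The receptor gene fz2 (FBgn0016797, 3L 19140975 to 19235373), which shares the work of Wingless reception with fz, had 9 thresholded summits, all inside the gene. Its strongest summit, at 19194262 in an intron 23614 bp upstream of the nearest of its 3 start sites, had a signal of 749 pooled, 388 in replicate 1 and 384 in replicate 2. The other 8 lay together over the stretch from 19160129 to 19173270, on either side of an internal start site, with pooled signals from 130.5 to 483. The weakest of these was the summit nearest to that start site, 34 bp from it, with 130.5 pooled, 61.2 in replicate 1 and 70.3 in replicate 2. Unlike at fz, the nearest coding start site was that of fz2 for all 9.

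The coreceptor gene arr (FBgn0000119, 2R 13453640 to 13483229) encodes the fly LRP protein and had 7 thresholded summits, of which 5 were inside the gene. The strongest pair lay in an intron 10708 and 10484 bp from the start site of arr, with pooled signals of 697 and 696. They were 347 and 343 in replicate 1, while in replicate 2 the first had no partner within 200 bp and the second had 356. Another intron summit, 16155 bp from the start site, had 686 pooled, 317 in replicate 1 and 368 in replicate 2. The nearest coding start site was in no case that of arr. It was that of CG43192, which starts inside arr, for 4 summits, and the pair outside arr lay 206 and 414 bp upstream of cnn, which encodes a centrosome protein. At the start site of arr itself the pooled relaxed list held a summit of signal 74.4, outside the thresholded list.

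The dsh gene (FBgn0000499, X 11355881 to 11358724) encodes the cytoplasmic protein Dishevelled, which passes the signal on from the receptors. Its single thresholded summit had 550.3 pooled, 249.7 in replicate 1 and 302 in replicate 2. It lay 4332 bp upstream of dsh in an intron, 941 bp from the start site of CG1737, so it counts for dsh only through the 5 kb limit. At dsh itself the relaxed summit 103 bp past the start site had 67.7 pooled, 42.5 in replicate 1 and 23.2 in replicate 2. Beyond the limit, the next thresholded summit, of signal 159, was 5178 bp from dsh.

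Within the destruction complex, the kinase gene sgg had thresholded summits at 2 of its start sites and the scaffold gene Axn had none. The sgg gene (FBgn0003371, X 2633952 to 2679553) encodes the fly GSK3 kinase and has 11 annotated start sites. Its strongest summit lay 171 bp upstream of an internal start site with a signal of 855 pooled, 437 in replicate 1 and 412 in replicate 2. It was the highest of all 42 summits and ranked 234 of the pooled peaks. Another lay 934 bp past the same start site with 396, 192 and 221 in those lists. The weakest, 191 bp past a different start site, had 144 pooled, and was 89.4 in replicate 1 but 50.3 in replicate 2, where it fell outside the 7223 strongest peaks. The 7223 strongest relaxed peaks of replicate 1 alone gave 6 summits at sgg and those of replicate 2 gave 3.

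At Axn (FBgn0026597, 3R 30022842 to 30035311) the pooled relaxed list held no summit inside the gene, and 5 lay within 5 kb. The strongest had 88.0 pooled, 28.2 in replicate 1 and 63.0 in replicate 2, and it lay 1051 bp from the start site of Mgat2. It ranked 6743 in replicate 2 and 15274 in replicate 1. The relaxed summit 138 bp upstream of the Axn start site had 42.0, and it lay closer, at 56 bp, to the start site of RpS28a. The nearest thresholded summit was 7503 bp from the gene.

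The arm gene (FBgn0000117, X 1891401 to 1900646), which encodes the beta-catenin Armadillo, had no thresholded summit but came close to the limit. Its strongest relaxed summit lay in an intron with 102 pooled, 53.0 in replicate 1 and 51.2 in replicate 2, and ranked 7750. Another, 44 bp past a start site, had 97.7 pooled, 58.2 in replicate 1 and 44.9 in replicate 2. In replicate 1 both ranked among the 7223 strongest (7148 and 6332), and in replicate 2 neither did (8516 and 9841). The nearest thresholded summit was 7216 bp away.

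The pan gene (FBgn0085432) lies on chromosome 4, at 69326 to 114270, and encodes Pangolin, the TCF protein that carries Armadillo to DNA. No thresholded summit lay inside it although it is 44945 bp long. The summit counted for it lay 2134 bp upstream, at 67192, 15 bp from the start site of the ribosomal protein gene RpS3A, with 218 pooled, 107 in replicate 1 and 113 in replicate 2. At pan itself the strongest relaxed summit, 60 bp past a start site, had 90.3 pooled, 46.9 in replicate 1 and 58.2 in replicate 2. The pooled relaxed list held 4 summits inside pan, against 22 to 47 inside each of fz, fz2, arr, sgg and nkd.

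The inhibitor gene nkd (FBgn0002945, 3L 19003741 to 19045449) had 10 thresholded summits, 7 of them inside the gene. Per kb of gene plus 5 kb flanks this was the highest number among the members, while per kb inside the gene arr was slightly higher, at 0.169 against 0.168. The strongest, in an intron 2731 bp past its only start site, had 561 pooled, 247 in replicate 1 and 329 in replicate 2; this is the site with 8 TAAT matches. A neighbour 3646 bp past the start site had 405 pooled, 206 in replicate 1 and 225 in replicate 2. Upstream, a summit 1117 bp from the start site had 398, 185 and 227 in the same lists. At the start site itself, 152 bp upstream, the signal was 320.2 pooled, 163 in replicate 1 and 166 in replicate 2. A weaker neighbour of it, 352 bp upstream, had 130.3 pooled and shares both replicate partners. The other 5 summits lay 3444 to 28819 bp into the gene, with pooled signals of 110.3 to 260.5. For 9 of the 10 the nearest coding start site was that of nkd.

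**Figure D2:**
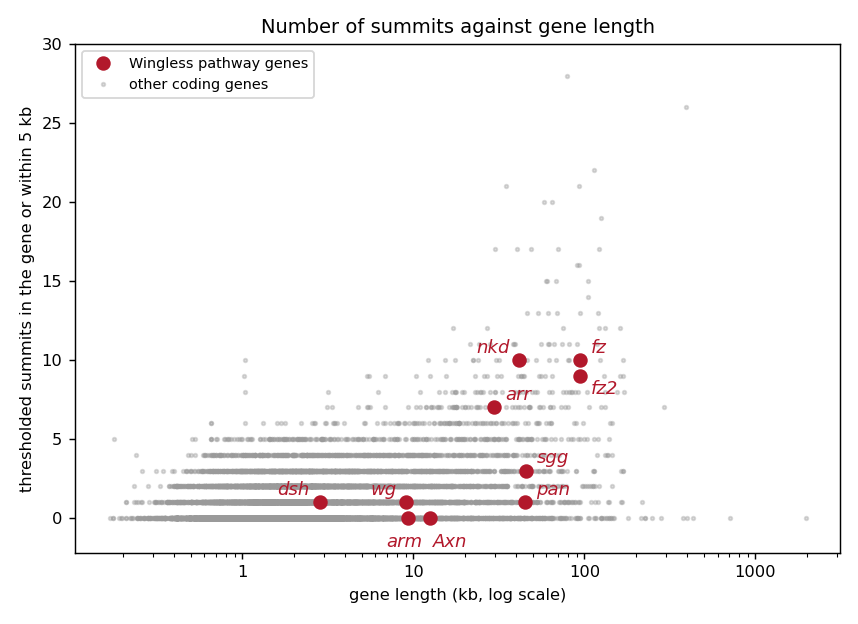
Each point is a protein-coding gene, with its length in kb on a log x axis and its number of thresholded summits in the gene or within 5 kb on the y axis; members are red and named. The members nkd, fz and fz2 carry 9 or 10 summits, and pan, of similar length to nkd, carries 1.

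Set against other genes of their length, nkd and arr stood high and pan stood below the median. Per kb of gene plus flanks, nkd had 0.193 summits and arr 0.177, which ranked 50 and 65 among the 1020 coding genes over 20 kb. The median of those genes was 0.0336 and their upper quartile 0.0898. The receptors fz and fz2 had 0.0959 and 0.0862, ranks 223 and 270, on either side of that quartile. At sgg there were 0.0540 per kb, rank 417, and at pan 0.0182, rank 662, below the median. In number alone, 9 or more summits were found at 97 coding genes, 85 of them over 20 kb, and fz, fz2 and nkd were among them. Of the 42 summits, 6 pairs of neighbours were 250 bp or less apart, so that their peaks can overlap. The pairs lay at fz, fz2, arr and nkd, and the densities above count both summits of each, as they do at all genes. Counting each such pair once left 36.

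**Figure D3:**
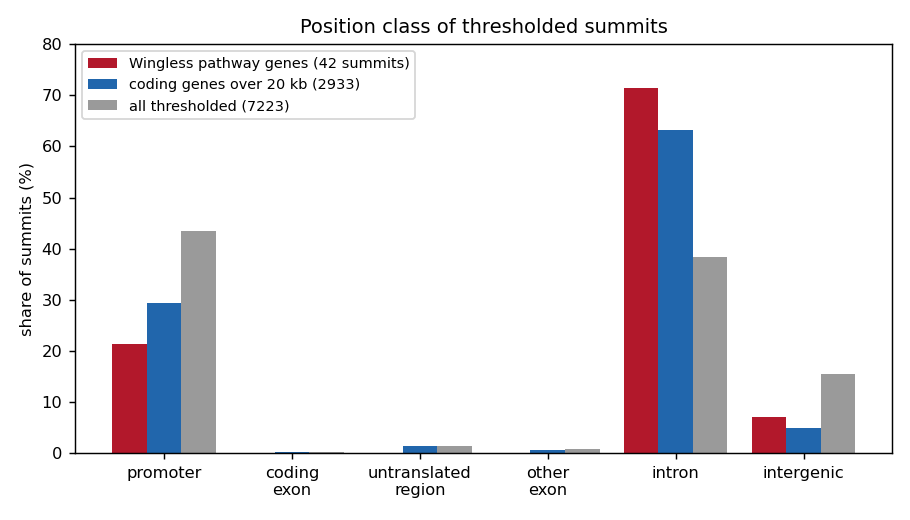
Bars give the share of thresholded summits in each position class for the members, for the surroundings of all coding genes over 20 kb, and for all thresholded peaks. Introns held 71.4% of the members' summits, 63.2% of those at long genes and 38.3% of all.

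Most of the members' summits were in introns, and most were far from the start sites of the member itself. Of the 42, 30 (71.4%) were in introns, 9 (21.4%) at promoters, within 500 bp of any start site, and 3 (7.14%) in intergenic sequence, with 0 in coding exons or untranslated regions. Over all thresholded peaks, introns held 38.3% and promoters 43.4%. Among the 2933 thresholded summits at coding genes over 20 kb the shares were 63.2% and 29.4%, between those of the members and those of all peaks. Of the 9 promoter summits, 5 were at a start site of the member itself (fz2, sgg and nkd), and 4 at those of cnn, CG43192 and RpS3A. In all, 33 of the 42 lay over 2 kb from every start site of their member, and for 18 the nearest coding start site belonged to another gene. Some of the 33 were close to a start site of another gene, such as the pan summit at RpS3A. Neither count was made for all thresholded peaks.

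The members' summits were stronger than the typical thresholded peak. Their median signal was 312, against 188 over all 7223 thresholded peaks. The strongest summit per gene had a median of 629 over the 8 members with a summit, against 261 over all coding genes with one and 330 over those longer than 20 kb. A gene with more summits has more chances of a strong one. The members with a single summit were at 550.3 (dsh), 352 (wg) and 218 (pan).

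**Figure D4:**
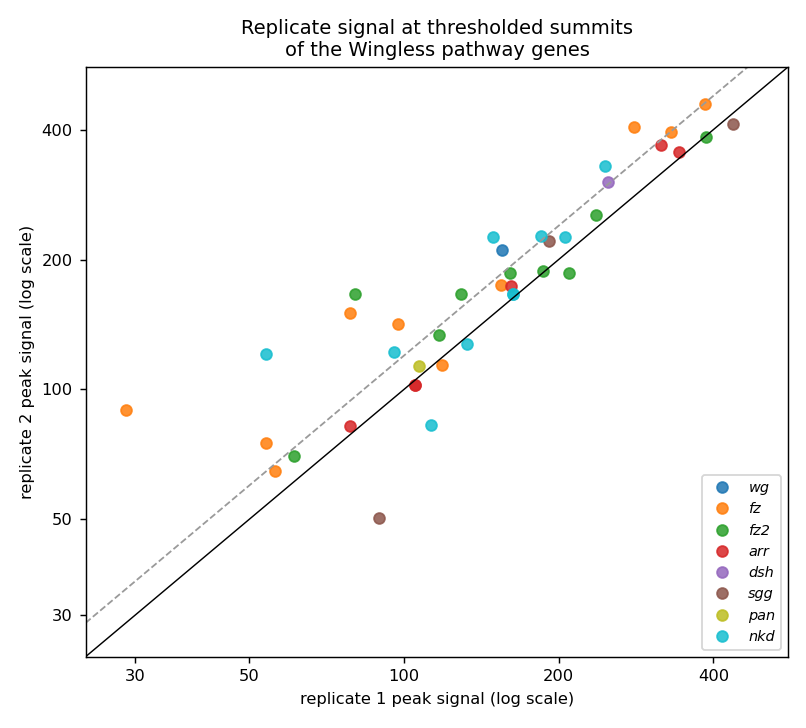
Each point is a thresholded summit of a member, with the signal of its partner in replicate 1 on the x axis and in replicate 2 on the y axis, both on log scales. The solid line marks equal signal and the dashed line the median ratio over all thresholded peaks. 32 of 41 points lie above the solid line, and 1 arr summit without a replicate 2 partner is not drawn.

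At most of the members' summits signal was higher in replicate 2 than in replicate 1, as over all thresholded peaks. A partner within 200 bp was found in both replicates for 41 of the 42 summits, and for 99.3% of all thresholded peaks, a list that was itself chosen for repeating between these replicates. Signal was higher in replicate 2 for 32 and lower for 9, with a median log2 ratio of replicate 2 to replicate 1 of 0.20 and an SD over summits of 0.42. Over all thresholded peaks the ratio was 0.26 with an SD of 0.45, the same direction at a similar size. By rank in each list in place of signal the direction turned, with a median log2 ratio of the replicate 1 rank to that of replicate 2 of -0.12. Of the 42 summits, 39 (92.9%) were among the 7223 strongest peaks of both replicates, against 82.2% of all thresholded peaks. These lists go by signal, the members' summits were stronger in general, and the shares were not matched for signal. The other 3 were the arr summit without a partner, the sgg summit lower in replicate 2, and the fz summit at 14350530, which had 28.7 in replicate 1 and 89.4 in replicate 2 (log2 ratio 1.64). Neighbouring summits could share a partner, as at cnn and at the nkd start site. A weak summit could then carry the rank of a stronger neighbour.

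The homeodomain core was present at most of the members' summits, at a share near that of thresholded summits in general. The search took both strands and 50 bp to each side of a summit. TAAT was present at 33 of 42 (78.6%, 95% Wilson interval 64.1% to 88.3%, counting error only), against 75% of all thresholded summits and 49.6% of windows of equal length centred on start sites of coding genes. TAATTA and TAATTG, which contain it, were each present at 3 of 42 (7.14%), against 9.72% and 9.93%. TGATTNAT, a composite site of Exd and Hox proteins, was at 0 of 42 against 2.99%. The Pangolin core CTTTGA was at 4 of 42 (9.52%) against 6.16%, and the longer CTTTGAT, which contains it, at 1 of 42, the fz2 summit printed above, against 1.79%. GCCGCC, the helper site of Pangolin, was at 0 of 42 against 2.20%. The TATA box sequence TATAAA was at 13 of 42 (31.0%) against 21.6%, the GATA site AGATAA at 4 of 42 against 8.43%, GAGAGA at 3 of 42 against 4.94%, the BEAF-32 core CGATA at 7 of 42 (16.7%) against 13.9%, and the DREF site TATCGATA at 0 of 42 against 1.11%. The windows held a median of 68.8% A and T at the members' summits, from 49.5% to 82.2%, and 67.3% at all thresholded summits. A and T content was not measured in the start-site windows, so the contrast with them is not matched for base composition. Match counts of 0 to 4 in 42 windows are too few to set apart from the general shares.

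Among 42 further genes of the pathway, 34 (81.0%) had a thresholded summit in the gene or within 5 kb. The share over all coding genes is the 56.1% given above, and 9 of the 42 are over 20 kb. By length that share was 51.6% under 5 kb, 68.9% from 5 to 20 kb and 71.5% over 20 kb. The further genes were not matched for length. The median strongest signal of the 34 was 235, against 261 over all coding genes with a summit. For 14 of the 34 the coding start site nearest to the strongest summit was that of the gene itself, and for the other 20 it was that of a neighbour.

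**Figure D5:**
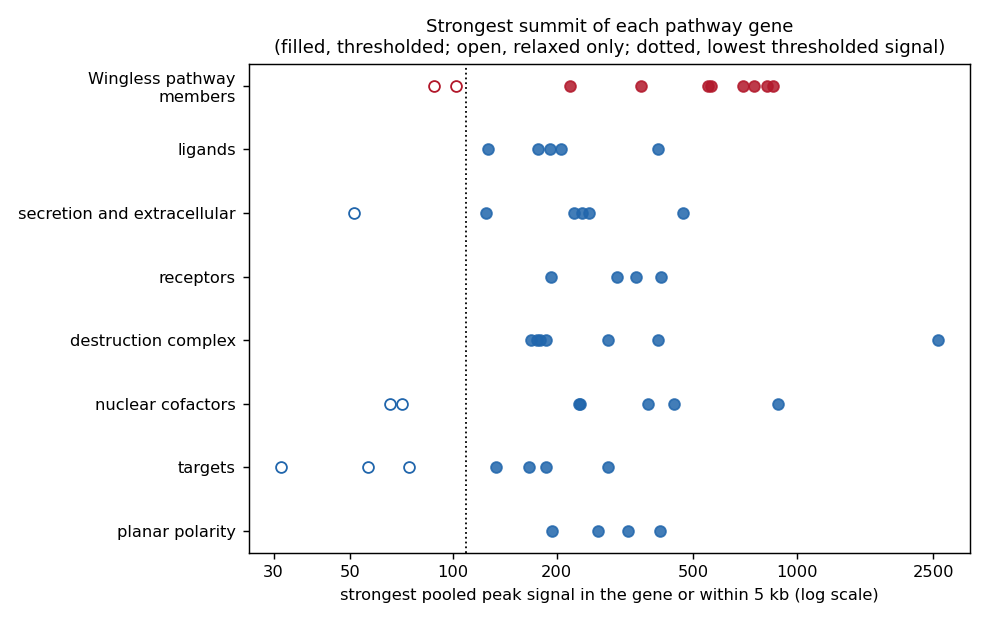
Each point is a gene, placed by the signal of its strongest pooled relaxed summit in the gene or within 5 kb on a log x axis, with the members in the top row and the further genes by role below. Filled points are in the thresholded list and open points are not. Of the members, 6 lie between 550.3 and 855, and the highest further gene is gish at 2571. The genes wntD and gskt had no relaxed summit and are not drawn.

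Each role holds few genes, and its count is to be read against the 56.1% of all coding genes with a summit. Of the other Wnt ligand genes, 5 of 6 had a summit, with the strongest at Wnt10 (394), Wnt4 (206), Wnt6 (191) and Wnt5 (177), and wntD had none. Of 6 genes of secretion and transport, 5 had one. The glypican genes dlp and dally, whose products hold Wingless at cell surfaces, had 11 and 6 summits with the strongest at 466 and 249. Notum, which encodes a secreted enzyme that inactivates Wnt proteins, had 7 with the strongest at 225, and wls, which carries Wnt proteins to the surface, had 1 at 237, 87 bp from the start site of Adck5. The acyltransferase gene por had none. All 4 further receptor genes had summits, drl at 403, fz3 at 340.2, fz4 at 299.6 and otk at 193. That of fz4 lay 4560 bp outside the gene.

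Of 8 genes of the destruction complex and its regulators, 7 (87.5%) had a summit, against 56.1% of all coding genes. Only at gish was the coding start site nearest to the strongest summit the gene's own. The casein kinase gene gish had the strongest of all, 157 bp from its own start site, with 2571 pooled, 1165 in replicate 1 and 1409 in replicate 2. Next were Apc2 at 396, 83 bp from the start site of TBC1d7, and mts at 283, 24 bp from that of Rack1. The gene slmb, which encodes the ubiquitin ligase subunit that recognises Armadillo, followed at 186. Its summit lay 31 bp from the start site of CG5793 and 57 bp from that of slmb. The GSK3 paralog gskt had none. Of 7 nuclear cofactors 5 had a summit, and the 4 strongest were gro, the corepressor that Pangolin recruits, at 882 with 382 in replicate 1 and 507 in replicate 2, nej at 438, hyx at 370.2 and CtBP at 233. The hyx summit lay 4838 bp from the gene and 191 bp from the start site of neur. The genes lgs and pygo, whose products bind Armadillo as a chain of coactivators, had none, with strongest relaxed signals of 65.6 and 70.8.

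Of 7 genes known as Wingless targets in fly tissues, 4 (57.1%) had a summit, near the 56.1% of all coding genes. These were nmo at 282 with 12 summits, Dll at 186, vg at 167 and sens at 133. The strongest summits of all 4 lay outside the gene, by 1142 to 4035 bp. In each case the nearest coding start site was another gene's, such as that of Nmda1, 64 bp from the vg summit. H15, mid and en had none, with strongest relaxed signals of 31.6 to 74.1. All 4 planar polarity genes that work with fz and dsh had a summit, stan at 401, dgo at 323, pk at 263 and Vang at 194. Only that of stan lay inside its gene, and only there was the nearest coding start site the gene's own. The Vang summit lay 6 bp from the start site of Pgm2a and the dgo summit 91 bp from that of CG12325.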

How the data were processed

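Chromatin was sheared to 200 to 800 bp and precipitated with an antibody against GFP, per the labels' protocols. The authors deposited peak lists on dm6, each peak with a signal value and a −log10 q value, called against a control library per the deposited file listing. No label or header names the caller or the aligner, which are thus not given in these sources. The control library was not analysed here. The dm3 lists were not used. The thresholded list held peaks that passed the irreproducible discovery rate, and all 7223 were also the strongest of the pooled relaxed list.

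Summits were placed on the Ensembl release 115 annotation, without transposable element models. Each was put in the first class that applied, in the order promoter, coding exon, UTR, other exon, intron and intergenic. As partner in a replicate, the relaxed peak of highest signal was taken among those whose summits lay within 200 bp. Length classes were under 5 kb, 5 to 20 kb and over 20 kb. Sequence was read from the RefSeq genome, which has the same release. The pan window was left out because it holds UTR bases. Up to 4 genes with the strongest summits were named per role of the further genes; Swim was matched by an older symbol. The members, lists and motifs were chosen with earlier results of these data known. Software was Python 3.11.15, numpy 2.4.6, pandas 2.3.3, scipy 1.17.1 and matplotlib 3.10.9. Of the placement and matching steps, the promoter class and the choice of partner were tested on simulated positions.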

Additional observations from a re-analysis of the deposited data

How the results depend on the processing

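The number of members with a thresholded summit depended on the distance allowed. Of the 10, 8 had one within 5 kb, against 56.1% of coding genes. The number was 5 inside the gene, against 15.8%, and also 5 within 1 kb, against 35.2%, and within 2 kb, against 41.5%. It was 10 within 10 kb, against 69.7%, and 3 within 1 kb of a start site, against 28.0%. The median strongest signal, 629, was 749 inside the gene or within 1 or 2 kb and 556 within 10 kb. Of the 42 further genes, 34 had a summit within 5 kb, 22 inside and 19 within 1 kb of a start site, to be read against the same shares of coding genes. With the pooled relaxed list the members had 221 summits in place of 42, and all 10 had one within 500 bp of a start site, against 51.3% of coding genes. The median log2 ratio between replicates was -0.12 by rank, against 0.20 by signal. TAAT was present at 54.8% of summits with 25 bp searched to each side and at 92.9% with 100 bp, sizes chosen after seeing the data, while all thresholded summits had it at 53.8% and 90%. The wider distances and motif windows contain the narrower ones, and the relaxed list contains the thresholded peaks, so these counts and shares can only rise. For the median signal and the ratio by rank, the cause of the change was not tested.

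Using the 7223 strongest peaks of 1 replicate, without replicate 1 or without replicate 2, gave 9 members and 33 further genes with a summit each time, against 55.9% to 56.2% of coding genes. There were 45 to 48 summits, and 3 to 4 members had one at a start site, against 23.9% to 24% of coding genes. TAAT was at 72.9% to 75.6% of the members' summits, against 73.8% to 74.7% of all peaks in these lists. The added member was Axn in replicate 2 and arm in replicate 1. Signal ratios could not be recomputed from 1 replicate. Counting these, 34 alternatives to the main counts and values stayed within 1.5 times the count or within the spread. Another 14 moved further, and 1, the ratio by rank, reversed. For the counts at single members, 53 alternatives stayed within the limit and 27 moved. No paired analysis was possible because there was 1 group. The unknown read depths, the unstated signal scale and the whole-animal samples limit all values, and relaxed peaks include background.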
